A study of Mus musculus with 6 samples.

Results

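The genes described here are 42 genes known from macrophages and monocytes, followed across H7 tumours (from PANC02-H7 cells), UNKC tumours (from UN-KC-6141 cells) and normal whole pancreas of C57BL/6 mice. Each group has n = 2 RNA sequencing libraries. They were picked by symbol from a list of 44 genes, chosen for their function with earlier results of these data known. Vsig4 and Tlr2, also on that list, matched no row of the comparison tables and are not analysed here. The 42 are part of 27179 genes counted in every library, and all 42 were among the 16306 genes with enough reads to test. They fall into 20 pan-macrophage genes, 8 resident macrophage genes and 14 inflammatory or lipid-associated genes, the last class also holding monocyte and activation genes. Both cell lines are mouse pancreatic carcinoma lines, placed surgically into the pancreas of C57BL/6 mice; the tumours were taken 20 days later and no mouse received a treatment. Each tumour type thus stands for 1 cell line, and each library is RNA of whole tissue, in which fewer cells of a type and less RNA per cell cannot be told apart. The labels do not say whether the 2 libraries of a group came from separate mice, so the p-values measure the spread between these libraries, which may be technical.

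Macrophages depend on the growth factor CSF1 and its receptor CSF1R for survival, and they take up dying cells, microbes and lipids through scavenger, Fc and complement receptors. Resident macrophages are long-lived cells of a tissue, many of them seeded before birth, while others arise from blood monocytes that enter a tissue in injury or cancer. Macrophages of tumours can break down arginine through arginase 1 or through inducible nitric oxide synthase, and in pancreatic carcinoma they are known as one of the commonest kinds of immune cell.

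The tumour libraries held 33332516 to 40507546 reads counted in genes and the normal pancreas libraries 12077320 and 8204225. Ribosomal RNA took 20.1% to 27.8% of tumour reads but 86.4% and 85.0% of the reads from normal pancreas. A tested gene therefore had a median of 460 to 625.5 reads in the tumours and only 11 and 12 in normal pancreas. Of the 42 genes, 22 and 21 had under 10 reads in the normal libraries, against 0 to 2 in each tumour library. Levels are given as CPM, a gene's count scaled to a common library size with TMM factors, a scaling that corrects for the share taken by a few abundant RNAs. Reads of skeletal muscle genes numbered 86 and 35751 in the H7 libraries, 82 and 144914 in the UNKC libraries, and 15 and 5 in the normal ones. Acinar genes summed to 2.89 to 20.2 CPM in the tumours and to 6241 and 6766 CPM in normal pancreas.

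General macrophage transcripts were highest in H7 tumours, intermediate in UNKC tumours and lowest in normal pancreas. The summed level of 10 of them (Adgre1, Cd68, Csf1r, Aif1, Fcer1g, Tyrobp, Lyz2, C1qa, C1qb and C1qc) was 1064 and 928 CPM in H7 tumours, 456 and 418 CPM in UNKC tumours, and 90.2 and 182 CPM in normal pancreas. The 3 groups did not overlap. In reads, these sums were 73475 and 72288 in H7 tumours, 41163 and 35716 in UNKC tumours, and 195 and 382 in normal pancreas. Per length of transcript, the highest mean levels in H7 tumours were those of Apoe (368 CPM per kilobase), Lyz2 (361) and Plac8 (169.9), and in UNKC tumours Plac8 (208.5), Apoe (202) and Lyz2 (170.4).

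**Figure D1:**
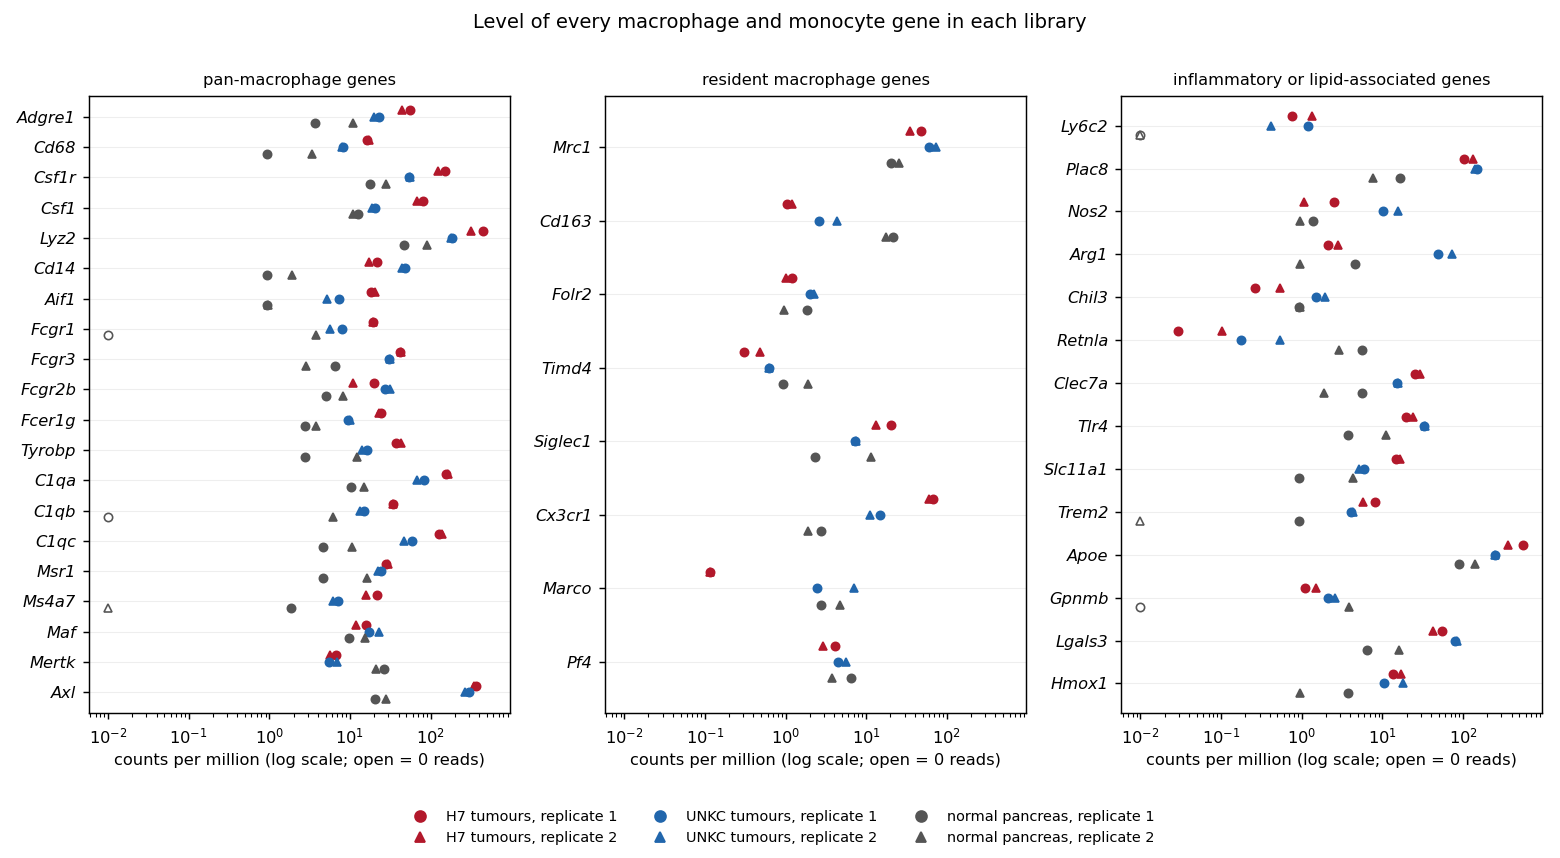
Level of each of the 42 genes in every library, in CPM on a log axis, with circles for replicate 1, triangles for replicate 2, and open symbols at the left edge for 0 reads. Most pan-macrophage genes run in the order H7, UNKC, normal pancreas (Adgre1 at 55.0 and 44.5, 22.7 and 19.8, and 3.70 and 11.0 CPM), while Arg1, Nos2 and Marco are lower in H7 than in UNKC tumours.

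Against normal pancreas, 28 of the 42 genes were higher and 4 were lower in H7 tumours (edgeR's quasi-likelihood test, Benjamini-Hochberg adjusted p under 0.05), where 29.6% of all tested genes were higher and 21.9% lower. The 4 lower genes were Mertk, Cd163, Marco and Retnla. The median log2 fold change was 2.53, against 0.34 over all tested genes. Ly6c2 had no read in normal pancreas. With genes at 0 in a group set at the value that their detection floor allows, the medians were 2.45 and -0.04. By class, 18 of 20 pan-macrophage genes were higher and 1 lower (median 2.91), 2 of 8 resident genes were higher and 2 lower (median -0.45), and 8 of 14 inflammatory or lipid-associated genes were higher and 1 lower (median 2.05, or 1.79 with Ly6c2 at its floor). The call of 7 of the 28 higher genes ended when a single library was left out (Fcgr1, Fcgr2b, Tyrobp, C1qb, Msr1, Mrc1 and Tlr4); their values follow with each gene.

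In UNKC tumours against normal pancreas, 25 of the 42 genes were higher and 3 lower (edgeR, adjusted p under 0.05), where 29.1% of all tested genes were higher and 19.3% lower. The lower genes were Mertk, Cd163 and Retnla. The median log2 fold change was 1.71, against 0.42 over all tested genes. With genes at 0 set at their floor, the medians were 1.55 and 0.07. By class, 14 of 20 pan-macrophage genes were higher and 1 lower (median 1.90), 2 of 8 resident genes were higher and 1 lower (median 0.22), and 9 of 14 inflammatory or lipid-associated genes were higher and 1 lower (median 2.39, or 2.11 with Ly6c2 at its floor). The calls of Adgre1, Csf1, Lyz2, Ms4a7, Trem2, Apoe and Retnla ended when a single library was left out, as given with each gene. Both tumour comparisons share the same normal libraries, so their values are set side by side and are not independent. Scaling to total counts, with no correction for abundant RNAs, moved the median log2 fold change of all genes by 3.29 for H7 and by 3.36 for UNKC tumours over normal. Upper-quartile scaling moved both by -0.36. A fold change against normal pancreas is therefore known only up to such a common shift. Short transcripts also read higher against normal pancreas: tested genes under 1000 bases had a median log2 fold change of 1.60 in H7 and 1.64 in UNKC tumours, against -0.01 and 0.08 for genes over 3000 bases.

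**Figure D2:**
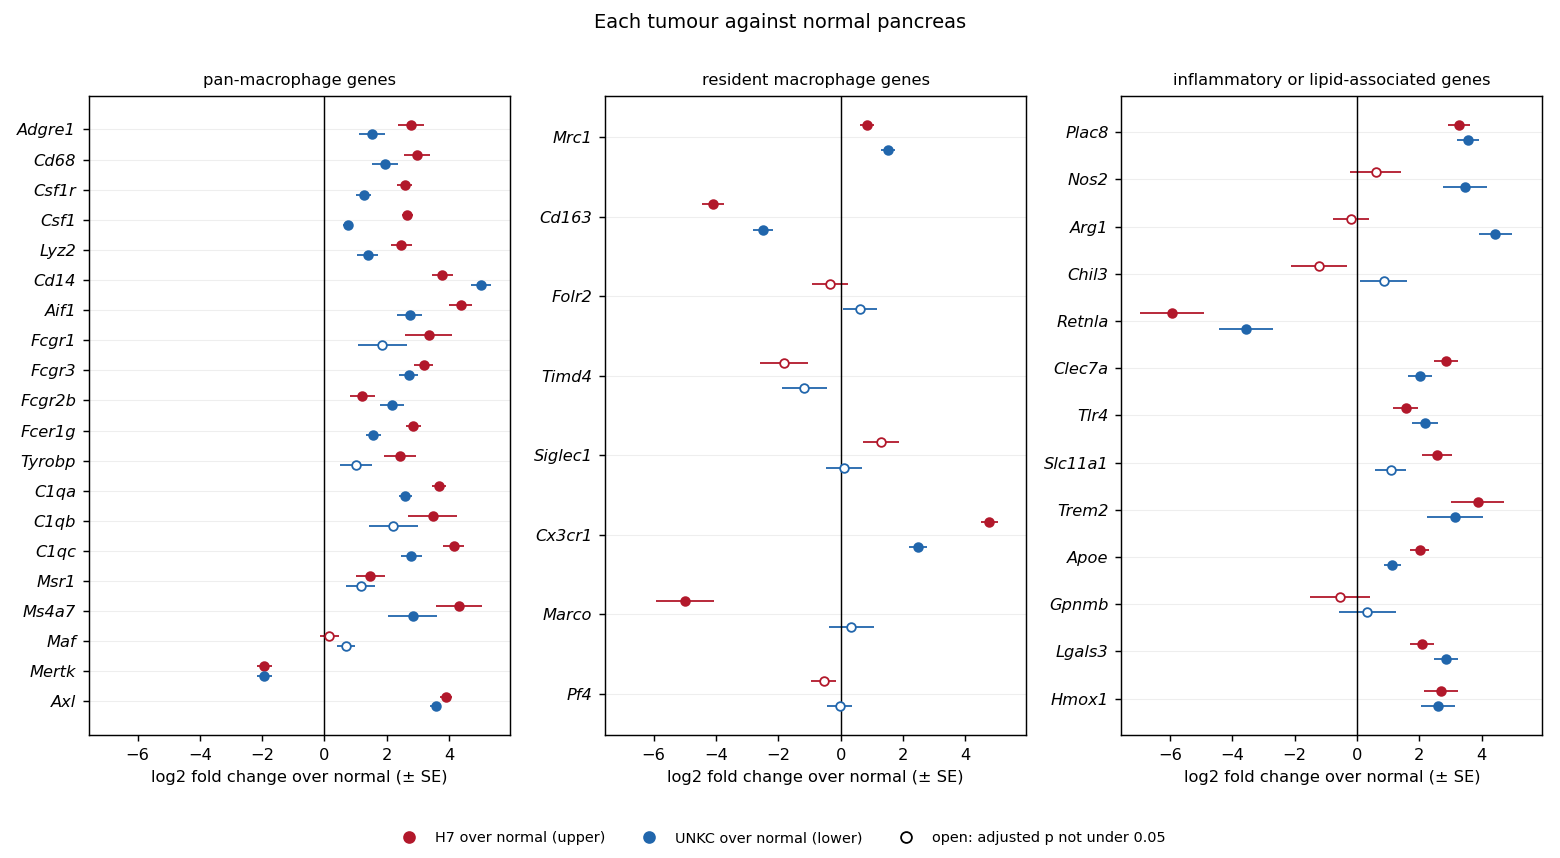
Log2 fold change with its standard error for each gene in H7 tumours over normal pancreas (upper, red) and UNKC tumours over normal pancreas (lower, blue), filled where the adjusted p was under 0.05; Ly6c2 is left out because it had no read in normal pancreas. Cd163 lies left of 0 in both tumours (-4.11 and -2.49), and Arg1 lies near 0 in H7 (-0.19) and far right in UNKC tumours (4.44).

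Compared directly, H7 tumours had more Cx3cr1, Csf1, Aif1, Slc11a1, C1qc, Csf1r, Fcer1g and C1qa, and less Marco, Arg1, Nos2, Chil3, Cd163 and Cd14, than UNKC tumours. These are 8 genes higher and 6 lower of 42 (edgeR, adjusted p under 0.05), where 7.06% of all tested genes were higher and 11.1% lower. The median log2 fold change was 0.36 over the 42 genes, against -0.02 over all tested genes. The pan-macrophage class had 6 genes higher and 1 lower of 20 (median 1.16), the resident class 1 higher and 2 lower of 8 (median -0.66), and the inflammatory or lipid-associated class 1 higher and 3 lower of 14 (median -0.46). The number called depended on the libraries in the fit: with only the 4 tumour libraries fitted, 20 genes were higher and 9 lower, and DESeq2 called 19 higher and 9 lower. Leaving out 1 library moved the counts to 2 higher and 1 lower (without H7 replicate 1), 4 and 3 (without H7 replicate 2), 3 and 4 (without UNKC replicate 1), 5 and 4 (without UNKC replicate 2), and 18 and 9 (without normal replicate 1, and the same without normal replicate 2).

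**Figure D3:**
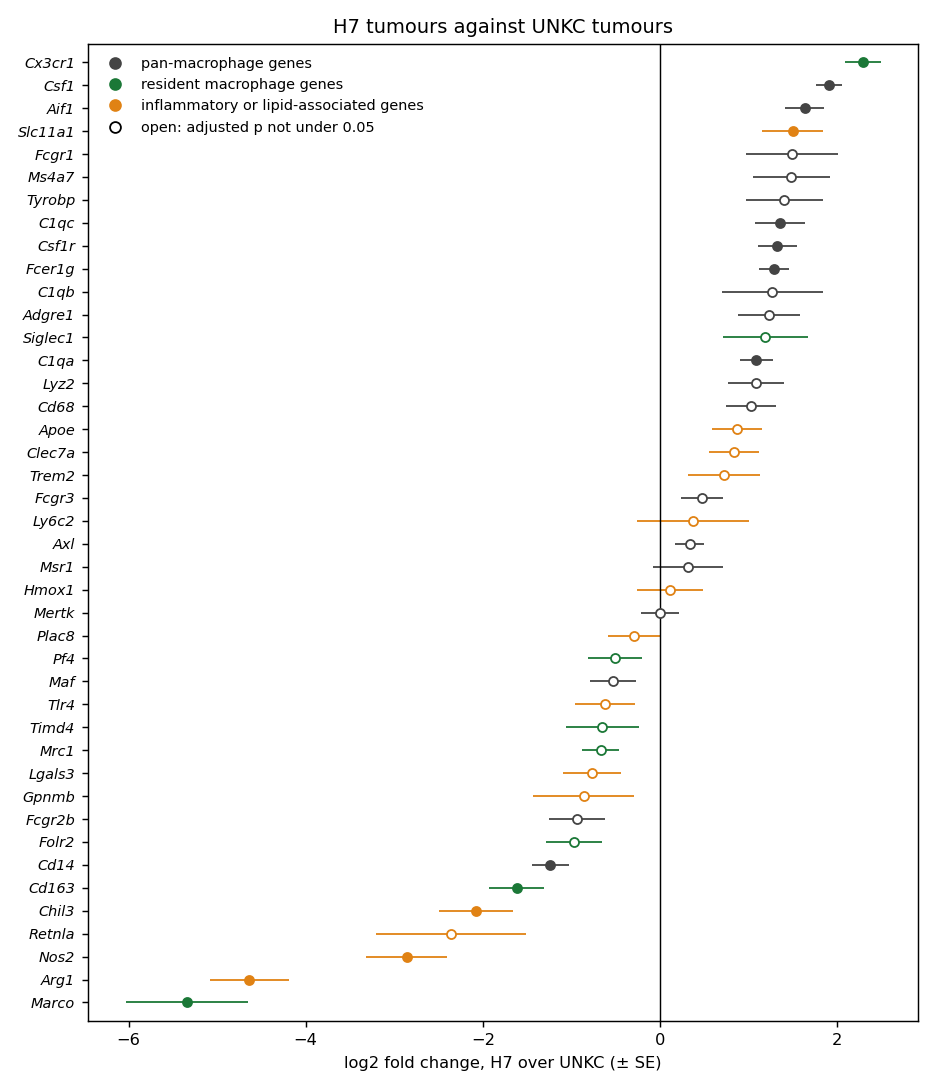
Log2 fold change of H7 over UNKC tumours with its standard error for the 42 genes, ordered by size and coloured by class, filled where the adjusted p was under 0.05. Cx3cr1 stands highest (2.29) and Marco (-5.34) and Arg1 (-4.64) lowest, with the general macrophage genes from Cd68 (1.03) to Aif1 (1.63) between.

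Promoters from RefSeq (GRCm38.p6), from 250 bases before to 50 after a transcript's start, were at hand for 30 of the 42 genes. The other 12, among them Csf1r, Adgre1, C1qa, Arg1 and Nos2, were not searched. The letters GAGGAA, read on either strand (TTCCTC on the other), were searched because they form the core bound by PU.1, the transcription factor that macrophages need; they contain the GGAA shared by all ETS factors. They were present in 18 of the 30 promoters (60.0%), and in 28.3% of 27025 promoters of the same length. The AP-1 letters TGANTCA were present in 3 of the 30 (against 7.93% of all promoters) and the C/EBP letters TTGCNNAA in 5 (16.7%, against 10.8%). A match in these windows is a description of their letters and not a sign of binding. The promoters below belong to the genes with the largest difference between the tumours in each direction, Cx3cr1 (chr9:120068247-120068546, minus strand) and Marco (chr1:120504975-120505274, minus strand), and to Aif1 (chr17:35176003-35176302, minus strand), the gene with the largest difference among the 10 summed above; they are written 5′ to 3′ with any of these letters in capitals.
Cx3cr1: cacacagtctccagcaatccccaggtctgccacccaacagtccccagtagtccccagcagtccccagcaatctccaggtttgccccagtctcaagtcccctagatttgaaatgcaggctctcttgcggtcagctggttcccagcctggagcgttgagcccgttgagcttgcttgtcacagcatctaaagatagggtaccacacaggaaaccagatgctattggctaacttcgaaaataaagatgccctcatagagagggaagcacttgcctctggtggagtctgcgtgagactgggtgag
Aif1: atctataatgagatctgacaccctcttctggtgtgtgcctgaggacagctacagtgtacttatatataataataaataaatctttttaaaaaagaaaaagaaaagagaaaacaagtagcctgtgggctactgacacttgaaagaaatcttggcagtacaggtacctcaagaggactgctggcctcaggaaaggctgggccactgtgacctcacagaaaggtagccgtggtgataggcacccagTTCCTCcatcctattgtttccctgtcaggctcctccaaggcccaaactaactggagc
Marco: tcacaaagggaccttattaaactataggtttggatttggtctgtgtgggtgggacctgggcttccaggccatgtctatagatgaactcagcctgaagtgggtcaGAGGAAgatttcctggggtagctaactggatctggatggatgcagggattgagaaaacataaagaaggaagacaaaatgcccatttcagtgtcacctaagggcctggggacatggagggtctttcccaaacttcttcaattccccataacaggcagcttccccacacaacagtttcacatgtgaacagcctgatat
The Cx3cr1 window held none of the 3 motifs, and the Aif1 and Marco windows held the PU.1 core once each.

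The CSF1 axis was higher in both tumours than in normal pancreas, and higher in H7 than in UNKC tumours. Csf1, the ligand, had 80.1 and 68.6 CPM in H7 tumours, 20.6 and 19.0 CPM in UNKC tumours, and 12.5 and 11.0 CPM in normal pancreas. Its log2 fold change was 2.66 ± 0.17 (SE, adjusted p = 0.000182) in H7 over normal, 0.75 ± 0.17 (adjusted p = 0.0116) in UNKC over normal, and 1.91 ± 0.15 (adjusted p = 0.00138) in H7 over UNKC. Csf1r, its receptor and a gene largely restricted to macrophages and their relatives, had 149 and 125 CPM in H7 tumours, 53.6 and 55.8 CPM in UNKC tumours, and 17.6 and 28.1 CPM in normal pancreas. The receptor's log2 fold change was 2.58 ± 0.24 (adjusted p = 0.000478) in H7 over normal, 1.26 ± 0.23 (adjusted p = 0.00601) in UNKC over normal, and 1.32 ± 0.22 (adjusted p = 0.0116) in H7 over UNKC. For both genes the 3 groups were separate. The call of Csf1 in UNKC over normal ended without UNKC replicate 1 (adjusted p = 0.0687) with upper-quartile scaling (0.118) and in a fit of the UNKC and normal libraries alone (0.0635). That of Csf1r in H7 over UNKC ended without H7 replicate 1 (0.115), without H7 replicate 2 (0.0555), without UNKC replicate 1 (0.077) and with scaling to total counts (0.0722).

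Among the markers used to identify macrophages in mice, Adgre1 (the surface antigen F4/80), Cd68 (a lysosomal membrane protein) and Lyz2 (lysozyme) were also higher in both tumours than in normal pancreas. Adgre1 had 55.0 and 44.5 CPM in H7 tumours, 22.7 and 19.8 CPM in UNKC tumours, and 3.70 and 11.0 CPM in normal pancreas, or 3796 and 3469, 2047 and 1687, and 8 and 23 reads. Lyz2 had 445 and 318 CPM in H7 tumours, 183 and 177 CPM in UNKC tumours, and 46.7 and 91.1 CPM in normal pancreas. The log2 fold changes of Adgre1, Cd68 and Lyz2 were 2.77, 2.97 and 2.47 in H7 over normal (adjusted p = 0.00264, 0.00194 and 0.00185) and 1.54, 1.94 and 1.39 in UNKC over normal (adjusted p = 0.0242, 0.0113 and 0.0151). Between the tumours they were 1.23 ± 0.35, 1.03 ± 0.28 and 1.08 ± 0.32 (SE), none of which passed the test (adjusted p = 0.0598, 0.0552 and 0.0678), while DESeq2 called all 3 (adjusted p = 5.24e-05, 1.80e-12 and 0.00314). Aif1 (an actin-binding protein of macrophages and microglia, the antigen Iba1) had 18.3 and 20.5 CPM in H7 tumours, 7.39 and 5.15 CPM in UNKC tumours, and 0.926 and 0.954 CPM in normal pancreas, where each library held 2 reads. It differed between the tumours by 1.63 ± 0.22 (adjusted p = 0.0047; 0.0582 without H7 replicate 1). The fitted 4.37 of Aif1 in H7 over normal has a 95% counting interval of 2.52 to 7.42, and the 2.74 in UNKC over normal one of 0.89 to 5.80. The calls in UNKC over normal ended for Adgre1 without H7 replicate 1 (adjusted p = 0.0591), H7 replicate 2 (0.0532) or UNKC replicate 1 (0.0809), with upper-quartile scaling (0.0568) and without the H7 libraries (0.0697), for Lyz2 without UNKC replicate 1 (0.0532), and with the length trend removed for Cd68 (0.0606) and Lyz2 (0.133).

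The complement C1q genes, which encode the 3 chains of the protein that starts the classical complement pathway and are made mainly by macrophages, differed in level, C1qa and C1qc being far more abundant than C1qb (34.1 CPM on average in H7 tumours and 14.1 CPM in UNKC tumours). C1qa had 157 and 162 CPM in H7 tumours, 81.7 and 68.3 CPM in UNKC tumours, and 10.2 and 14.8 CPM in normal pancreas. C1qc had 127 and 140.0 CPM in H7 tumours, 58.2 and 46.3 CPM in UNKC tumours, and 4.63 and 10.5 CPM in normal pancreas. All 3 groups were separate for both genes. C1qa, C1qb and C1qc had log2 fold changes of 3.68, 3.47 and 4.15 in H7 over normal (adjusted p = 0.000156, 0.0117 and 0.000353) and of 2.59, 2.20 and 2.79 in UNKC over normal (adjusted p = 0.000332, 0.0619 and 0.00127), C1qb having 0 and 13 reads in normal pancreas. In H7 over UNKC they were 1.09 ± 0.18, 1.27 ± 0.57 and 1.35 ± 0.28 (SE; adjusted p = 0.0121, 0.192 and 0.0247). The 3 genes lie side by side on chromosome 4 (C1qb at 136880126 to 136886200, C1qc at 136889801 to 136892936 and C1qa at 136895916 to 136898844, GRCm38.p6). Without H7 replicate 1 the call of C1qb in H7 over normal ended (adjusted p = 0.06). Each of the 4 tumour libraries, when left out, ended the calls between the tumours: the adjusted p of C1qa and C1qc was 0.108 and 0.154 without H7 replicate 1, 0.0868 and 0.138 without H7 replicate 2, 0.052 and 0.0825 without UNKC replicate 1, and 0.0631 and 0.089 without UNKC replicate 2. Scaling to total counts ended both as well (0.0912 and 0.104).

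Among the Fc receptors, through which macrophages bind antibody-coated targets, and the adaptors that carry their signals, Fcgr3, Fcgr2b and Fcer1g were higher in both tumours than in normal pancreas, and Fcgr1 and Tyrobp in H7 tumours. Fcer1g, the shared gamma chain, had 24.6 and 23.0 CPM in H7 tumours, 9.59 and 9.92 CPM in UNKC tumours, and 2.78 and 3.82 CPM in normal pancreas. It differed between the tumours by 1.29 ± 0.17 (log2, SE; adjusted p = 0.00572). Tyrobp, the adaptor DAP12, had 37.6 and 43.4 CPM in H7 tumours, 16.4 and 14.3 CPM in UNKC tumours, and 2.78 and 12.4 CPM in normal pancreas. Tyrobp was at 2.42 in H7 over normal (adjusted p = 0.00985), at 1.02 in UNKC over normal (adjusted p = 0.154) and at 1.40 in H7 over UNKC (adjusted p = 0.0793). Fcgr2b, the inhibitory receptor, ran the other way between the tumours, with 19.8 and 11.0 CPM in H7 tumours, 26.9 and 31.8 CPM in UNKC tumours, and 5.09 and 8.11 CPM in normal pancreas. Its difference of -0.93 ± 0.32 did not pass the test (adjusted p = 0.101). The activating receptors Fcgr1 and Fcgr3 had log2 fold changes of 3.35 and 3.18 in H7 over normal (adjusted p = 0.0121 and 0.000544) and 1.86 and 2.71 in UNKC over normal (adjusted p = 0.103 and 0.001). Fcgr2b and Fcgr3 are close relatives on chromosome 1, and reads that fit both could be split between them in the authors' counting. In H7 over normal the calls of several receptors rested on single libraries: Fcgr1 ended without H7 replicate 1 (adjusted p = 0.0573) and H7 replicate 2 (0.05005), Tyrobp without H7 replicate 2 (0.0502), and Fcgr2b without H7 replicate 1 (0.123), UNKC replicate 1 (0.0623), UNKC replicate 2 (0.0634) and normal replicate 1 (0.155). Other settings also ended the call of Fcgr2b (adjusted p from 0.0553 with a filter of 30 reads to 0.147 with the length trend removed). Removing the length trend lowered Tyrobp in H7 over normal to 1.20 (adjusted p = 0.0902) and Fcer1g in UNKC over normal to 0.56 (adjusted p = 0.111), against 1.57 (adjusted p = 0.0027) without that step. The call of Fcer1g between the tumours ended without H7 replicate 1 (0.0823) and UNKC replicate 1 (0.0589).

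Clec7a and Trem2, receptors that signal through ITAM motifs as the Fc receptors do, were higher in both tumours than in normal pancreas. Clec7a (dectin-1, a receptor for fungal glucans) had 25.3 and 29.3 CPM in H7 tumours, 15.1 and 15.5 CPM in UNKC tumours, and 5.55 and 1.91 CPM in normal pancreas. Trem2, a lipid receptor that marks lipid-associated macrophages, had 8.01 and 5.83 CPM in H7 tumours, 4.03 and 4.33 CPM in UNKC tumours, and 0.926 and 0 CPM in normal pancreas. Trem2 was at 3.87 in H7 over normal (adjusted p = 0.00695; 95% counting interval 1.38 to 9.17, on 1 read pair in normal pancreas) and 3.15 in UNKC over normal (adjusted p = 0.0221; interval 0.67 to 8.46). The second call ended without UNKC replicate 1 (0.0512) and with the length trend removed (0.0643). Neither gene passed the test between the tumours (Clec7a 0.83 ± 0.28, adjusted p = 0.0996; Trem2 0.73 ± 0.41, adjusted p = 0.274).

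The receptors for dying cells moved apart. Axl had 370 and 347 CPM in H7 tumours, 301 and 268 CPM in UNKC tumours, and 20.4 and 27.7 CPM in normal pancreas. Axl was higher in both tumours (3.90 ± 0.19 in H7 and 3.57 ± 0.19 in UNKC over normal, adjusted p = 0.000133 and 0.000149). Mertk, its close relative in efferocytosis, had 6.73 and 5.72 CPM in H7 tumours, 5.49 and 6.99 CPM in UNKC tumours, and 26.4 and 21.0 CPM in normal pancreas. It was lower in both tumours (-1.93 ± 0.24 in H7 and -1.92 ± 0.24 in UNKC over normal, adjusted p = 0.00123 and 0.00132), but with scaling to total counts it was higher in both (1.38 and 1.46). Axl is also expressed by carcinoma cells and fibroblasts, and Mertk by other tissues, so their reads need not come from macrophages. Msr1, a scavenger receptor, had 28.4 and 29.3 CPM in H7 tumours, 24.0 and 22.4 CPM in UNKC tumours, and 4.63 and 16.2 CPM in normal pancreas. Msr1 was called in H7 over normal (1.47 ± 0.46, adjusted p = 0.0381) but not without H7 replicate 1 (0.117), H7 replicate 2 (0.121) or UNKC replicate 1 (0.0614), nor with upper-quartile scaling (0.0842), a filter of 30 reads (0.0591) or the UNKC libraries left out of the fit (0.0601). Ms4a7, a membrane protein of macrophages, had 21.6 and 16.0 CPM in H7 tumours, 7.21 and 6.22 CPM in UNKC tumours, and 1.85 and 0 CPM in normal pancreas. Ms4a7 was at 4.32 in H7 over normal (adjusted p = 0.00331; 95% counting interval 2.45 to 7.35) and 2.84 in UNKC over normal (adjusted p = 0.0237; interval 0.98 to 5.89). The second call ended without H7 replicate 1 (0.056) and UNKC replicate 1 (0.0662), with the length trend removed (0.0842) and in a fit of the UNKC and normal libraries alone (0.0607). Maf, a transcription factor of mature macrophages, had 15.9 and 11.9 CPM in H7 tumours, 17.4 and 22.8 CPM in UNKC tumours, and 9.72 and 15.3 CPM in normal pancreas. It passed no test in the fit of all 6 libraries with TMM scaling. With scaling to total counts it was called higher in both tumours over normal pancreas (3.41 in H7 and 4.01 in UNKC).

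Of the resident class, Cx3cr1 and Mrc1 were higher in both tumours, and Cd163 was lower in both. Cx3cr1, the fractalkine receptor of monocytes and some resident macrophages (chromosome 9, 120048683 to 120068296), had 67.8 and 59.9 CPM in H7 tumours, 14.9 and 11.2 CPM in UNKC tumours, and 2.78 and 1.91 CPM in normal pancreas. Its log2 fold change was 4.77 ± 0.28 (SE, adjusted p = 0.000156) in H7 over normal, 2.48 ± 0.28 (adjusted p = 0.00103) in UNKC over normal, and 2.29 ± 0.20 (adjusted p = 0.00188) in H7 over UNKC. Those calls held in every fit that left out 1 library. Mrc1, the mannose receptor CD206, had 48.0 and 35.1 CPM in H7 tumours, 59.5 and 72.9 CPM in UNKC tumours, and 20.4 and 25.8 CPM in normal pancreas. The mannose receptor's log2 fold change was 0.85 ± 0.23 (adjusted p = 0.0223) in H7 over normal, 1.52 ± 0.23 (adjusted p = 0.00274) in UNKC over normal, and -0.67 ± 0.21 (adjusted p = 0.0815) in H7 over UNKC. The call in H7 over normal ended without H7 replicate 1 (adjusted p = 0.0892), without normal replicate 1 (0.0755) and with upper-quartile scaling (0.113).

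Cd163, the scavenger receptor for haemoglobin bound to haptoglobin (chromosome 6, 124304636 to 124330529), had 1.06 and 1.19 CPM in H7 tumours, 2.59 and 4.32 CPM in UNKC tumours, and 21.3 and 17.7 CPM in normal pancreas. The 3 groups were separate, with H7 lowest. Its log2 fold change was -4.11 ± 0.35 (SE, adjusted p = 0.000383) in H7 over normal, -2.49 ± 0.33 (adjusted p = 0.00176) in UNKC over normal, and -1.62 ± 0.31 (adjusted p = 0.019) in H7 over UNKC. With scaling to total counts the values against normal pancreas were -0.80 in H7 (adjusted p = 0.088) and, reversed, 0.88 in UNKC tumours (adjusted p = 0.0589). Marco, a scavenger receptor for bacteria and particles (chromosome 1, 120474538 to 120505024), had 0.116 CPM in both H7 tumours (8 and 9 reads), 2.44 and 7.13 CPM in UNKC tumours (220 and 609 reads), and 2.78 and 4.77 CPM in normal pancreas (6 and 10 reads). Marco was lower in H7 tumours than in UNKC tumours (-5.34 ± 0.69, adjusted p = 0.00544) and than in normal pancreas (-5.00 ± 0.93, adjusted p = 0.00598; -1.72 with total counts, adjusted p = 0.105). In UNKC tumours it was at 0.34 ± 0.71 over normal pancreas (adjusted p = 0.707). Between the tumours, the call of Cd163 ended without H7 replicate 1 (0.162), H7 replicate 2 (0.103) and UNKC replicate 2 (0.067), and that of Marco without H7 replicate 1 (0.0781) and H7 replicate 2 (0.0593).

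The other 4 resident genes passed no test in the fit of all 6 libraries with TMM scaling. In H7 over normal, DESeq2 called Timd4 lower (-1.97, adjusted p = 0.0232). With the length trend removed, Pf4 was lower (-1.76, adjusted p = 0.0171) and Siglec1 higher (2.03, adjusted p = 0.0347) in that comparison. Scaling to total counts called all 4 higher in UNKC over normal, and all but Timd4 in H7 over normal. Folr2 (folate receptor beta) had 1.20 and 1.00 CPM in H7 tumours, 2.04 and 2.28 CPM in UNKC tumours, and 1.85 and 0.954 CPM in normal pancreas. Timd4, a receptor for phosphatidylserine on long-lived resident macrophages, had 0.304 and 0.488 CPM in H7 tumours, 0.620 and 0.632 CPM in UNKC tumours, and 0.926 and 1.91 CPM in normal pancreas, the last on 2 and 4 reads. Siglec1 (sialoadhesin, CD169) had 20.1 and 13.3 CPM in H7 tumours, 7.24 and 7.40 CPM in UNKC tumours, and 2.31 and 11.5 CPM in normal pancreas. Pf4, a chemokine of platelets and some resident macrophages, had 4.14 and 2.94 CPM in H7 tumours, 4.50 and 5.60 CPM in UNKC tumours, and 6.48 and 3.82 CPM in normal pancreas. Platelet and megakaryocyte markers summed to 4.23 and 3.54 CPM in H7 tumours, 1.52 and 2.04 CPM in UNKC tumours, and 7.40 and 11.5 CPM in normal pancreas. Their part in the level of Pf4 was not tested.

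Both genes of this set that sense bacterial lipopolysaccharide, Cd14 and Tlr4, were higher in both tumours than in normal pancreas, and Cd14 differed between the tumours. Cd14, the co-receptor, had 21.9 and 17.0 CPM in H7 tumours, 48.1 and 43.6 CPM in UNKC tumours, and 0.926 and 1.91 CPM in normal pancreas. Cd14 was lower in H7 than in UNKC tumours (-1.24 ± 0.21, SE; adjusted p = 0.0114). Over normal pancreas it was at 3.78 in H7 tumours (adjusted p = 0.000348; 95% counting interval 2.23 to 6.05) and 5.02 in UNKC tumours (adjusted p = 0.000169; interval 3.48 to 7.30), on 3 read pairs in normal pancreas. Tlr4, the signalling receptor, had 19.7 and 23.7 CPM in H7 tumours, 32.6 and 34.1 CPM in UNKC tumours, and 3.70 and 11.0 CPM in normal pancreas. It was at -0.62 ± 0.34 in H7 over UNKC (adjusted p = 0.275). The call of Cd14 between the tumours ended without H7 replicate 1 (0.087), H7 replicate 2 (0.0949) and UNKC replicate 1 (0.077), and that of Tlr4 in H7 over normal (1.57 ± 0.41, adjusted p = 0.0204) without H7 replicate 1 (0.0609) and H7 replicate 2 (0.0888).

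Both enzymes that consume arginine were higher in UNKC tumours than in H7 tumours and normal pancreas. Arg1, which splits arginine into ornithine and urea (chromosome 10, 24915207 to 24927470), had 2.10 and 2.81 CPM in H7 tumours, 48.4 and 73.9 CPM in UNKC tumours, and 4.63 and 0.954 CPM in normal pancreas. In reads these were 145 and 219, 4367 and 6310, and 10 and 2. Arg1 was lower in H7 than in UNKC tumours by a log2 fold change of -4.64 ± 0.45 (SE, adjusted p = 0.00227), a call that ended without H7 replicate 1 (0.057) and held in the other fits that left out 1 library. Over normal pancreas it was 4.44 ± 0.54 in UNKC tumours (adjusted p = 0.00127) and -0.19 ± 0.59 in H7 tumours (adjusted p = 0.802; 3.17 with total counts, adjusted p = 0.00106). Nos2, inducible nitric oxide synthase (chromosome 11, 78920787 to 78960226), had 2.52 and 1.07 CPM in H7 tumours, 10.2 and 15.9 CPM in UNKC tumours, and 1.39 and 0.954 CPM in normal pancreas. Nos2 was lower in H7 than in UNKC tumours (-2.86 ± 0.45, adjusted p = 0.00879), a call that held in every fit that left out 1 library. It was higher in UNKC tumours than in normal pancreas (3.47, adjusted p = 0.00741; 95% counting interval 1.65 to 5.48), and in H7 over normal it was 0.61 (adjusted p = 0.566; interval -1.26 to 2.61). The authors' deposited table gave Arg1 a log2 fold change of 4.04 in UNKC tumours over normal pancreas and of -0.21 in H7 tumours over normal pancreas.

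Chil3 (the chitinase-like protein Ym1) and Retnla (the secreted protein RELMalpha), which interleukin 4 induces in mouse macrophages, were at low levels throughout. Chil3 had 0.261 and 0.539 CPM in H7 tumours, 1.51 and 1.92 CPM in UNKC tumours, and 0.926 and 0.954 CPM in normal pancreas, where each library held 2 reads. It was lower in H7 than in UNKC tumours (-2.08 ± 0.42, SE; adjusted p = 0.0185), a call that ended without H7 replicate 1 (0.141), UNKC replicate 1 (0.0625) and UNKC replicate 2 (0.0657). Chil3 has near-identical neighbours such as Chil4 on chromosome 3, and reads may have been shared among them. Retnla had 2 and 8 reads in H7 tumours, 16 and 46 reads in UNKC tumours, and 12 and 6 reads in the far shallower normal libraries, or 0.029 and 0.103, 0.177 and 0.539, and 5.55 and 2.86 CPM. Against normal pancreas Retnla was lower in both tumours (-5.92 ± 1.03 for H7 and -3.56 ± 0.87 for UNKC, adjusted p = 0.00453 and 0.0173). The UNKC call ended without normal replicate 1 (0.139) and with total counts (0.86).

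Of the 2 genes of circulating monocytes, Plac8 was abundant in both tumours and Ly6c2 was scarce. Plac8, a gene of inflammatory monocytes that pancreatic carcinoma cells are also known to express, had 102 and 134 CPM in H7 tumours, 149 and 141 CPM in UNKC tumours, and 16.7 and 7.63 CPM in normal pancreas. Over normal pancreas Plac8 was at 3.28 ± 0.35 in H7 and 3.58 ± 0.35 in UNKC tumours (log2, SE; adjusted p = 0.000731 and 0.000613). It was at -0.30 ± 0.29 in H7 over UNKC (adjusted p = 0.567). Epithelial markers (Epcam, Krt8, Krt18 and Krt19) summed to 358 and 352 CPM in H7 tumours, 935 and 775 CPM in UNKC tumours, and 139.7 and 107 CPM in normal pancreas. Their part in the level of Plac8 was not tested. Ly6c2, the antigen of classical monocytes, had 0.753 and 1.36 CPM in H7 tumours and 1.21 and 0.421 CPM in UNKC tumours, and no read in either normal library. A count of 0 in the normal libraries allows a level above those of both tumours, so no fold over normal pancreas is given, and reads may be shared with its near-identical relatives.

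Of the lipid, iron and lysosome genes of the third class, Apoe, Lgals3 and Hmox1 were higher in both tumours than in normal pancreas. Apoe, the apolipoprotein that lipid-laden macrophages secrete, had 559 and 362 CPM in H7 tumours, 252 in both UNKC tumours, and 89.3 and 139 CPM in normal pancreas. Apoe was higher over normal pancreas by 2.01 ± 0.29 in H7 and 1.14 ± 0.28 in UNKC tumours (SE; adjusted p = 0.00225 and 0.0182). The UNKC call ended without UNKC replicate 1 (0.0603), without normal replicate 1 (0.0614), with upper-quartile scaling (0.0606) and with the length trend removed (0.163). Lgals3 (galectin 3, also made by carcinoma cells) had 54.4 and 42.2 CPM in H7 tumours, 80.1 and 84.0 CPM in UNKC tumours, and 6.48 and 16.2 CPM in normal pancreas. Hmox1, the haem-degrading oxygenase, had 13.7 and 16.8 CPM in H7 tumours, 10.4 and 17.9 CPM in UNKC tumours, and 3.70 and 0.954 CPM in normal pancreas. Lgals3 and Hmox1 were higher over normal pancreas by 2.09 and 2.70 in H7 tumours (adjusted p = 0.00511 and 0.00804) and by 2.86 and 2.59 in UNKC tumours (adjusted p = 0.00181 and 0.0101), and neither passed the test between the tumours. Slc11a1 (Nramp1, a metal transporter of the phagosome) had 14.6 and 16.5 CPM in H7 tumours, 5.84 and 5.20 CPM in UNKC tumours, and 0.926 and 4.29 CPM in normal pancreas. Slc11a1 was higher in H7 than in UNKC tumours (1.50 ± 0.34, adjusted p = 0.0332), but not without H7 replicate 1 (0.196), H7 replicate 2 (0.17), UNKC replicate 1 (0.138) or UNKC replicate 2 (0.103), with total counts (0.0993) or with a filter of 30 reads (0.0534). Gpnmb, a glycoprotein of lipid-associated macrophages, had 1.10 and 1.50 CPM in H7 tumours, 2.15 and 2.59 CPM in UNKC tumours, and 0 and 3.82 CPM in normal pancreas. It passed no test in the fit of all 6 libraries with TMM scaling. With scaling to total counts it was called higher in both tumours over normal pancreas (2.70 in H7 and 3.63 in UNKC).

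Read counts relative to the 10 general macrophage genes do not depend on the scaling of libraries. The 10 genes themselves make up the denominator, which ties their values together. Per 1000 of their summed reads, Adgre1 took 51.7 and 48.0 in H7 tumours, 49.7 and 47.2 in UNKC tumours, and 41.0 and 60.2 in normal pancreas. Lyz2 took 418 and 343 in H7 tumours, 402 and 424 in UNKC tumours, and 518 and 500.0 in normal pancreas. The mean ratio of H7 to UNKC tumours ran from 0.90 (Cd68) to 1.38 (Aif1) over the 10, and the tumours overlapped for 8 of them. They did not overlap for 30 of the 32 other genes. Since the summed level of the 10 genes was higher in H7 tumours, a gene with equal CPM in both tumours would have a ratio of 0.439, and Mertk had 0.434. Of the 32 other genes, 26 had a ratio below that of Cd68 and 2 (Csf1 and Cx3cr1) one above that of Aif1. Among the lowest was Arg1, with 1.97 and 3.03 reads per 1000 in H7 tumours, 106 and 177 in UNKC tumours, and 51.3 and 5.24 in normal pancreas. The mean ratio was 0.0177 for H7 over UNKC tumours. Marco had 0.109 and 0.125 reads per 1000 in H7 tumours, 5.35 and 17.1 in UNKC tumours, and 30.8 and 26.2 in normal pancreas (H7 over UNKC 0.0104). Nos2 had 2.37 and 1.15 in H7 tumours, 22.3 and 37.9 in UNKC tumours, and 15.4 and 5.24 in normal pancreas (H7 over UNKC 0.0584).

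On this scale most resident genes were lowest in H7 tumours and highest in normal pancreas by group mean. Lyz2, Maf, Msr1, Apoe, Retnla, Chil3, Gpnmb and Clec7a, of the other classes, had the same order of group means. Cd163 had 0.994 and 1.29 reads per 1000 in H7 tumours, 5.69 and 10.3 in UNKC tumours, and 236 and 96.9 in normal pancreas. Mrc1 had 45.1 and 37.9 in H7 tumours, 131 and 174 in UNKC tumours, and 226 and 141 in normal pancreas. UNKC tumours overlapped normal pancreas and H7 tumours did not. Mertk, a gene of the pan-macrophage class with that order, had 6.33 and 6.17 in H7 tumours, 12.1 and 16.7 in UNKC tumours, and 292 and 115 in normal pancreas. Timd4 had 0.286 and 0.526 in H7 tumours, 1.36 and 1.51 in UNKC tumours, and 10.3 and 10.5 in normal pancreas. Cx3cr1 differed from them, with 63.8 and 64.6 in H7 tumours, 32.7 and 26.9 in UNKC tumours, and 30.8 and 10.5 in normal pancreas. Siglec1 was alike in both tumours (18.9 and 14.3 in H7, 15.9 and 17.7 in UNKC, 25.6 and 62.8 in normal pancreas). Cd14 had 20.6 and 18.3 in H7 tumours, 105 and 104 in UNKC tumours, and 10.3 and 10.5 in normal pancreas. Lgals3 had 51.1 and 45.5 in H7 tumours, 176 and 201 in UNKC tumours, and 71.8 and 89.0 in normal pancreas. These ratios are descriptions with no test. In normal pancreas they rest on sums of 195 and 382 reads. They also keep the trend on gene length against normal pancreas. Lyz2, C1qa and C1qc of the sum have 1057, 1082 and 1054 bases, and Cd163 and Mrc1 4492 and 5318. Folr2 and Pf4, resident genes with the same order, have 1081 and 588 bases. The part of length in that order was not tested.

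**Figure D4:**
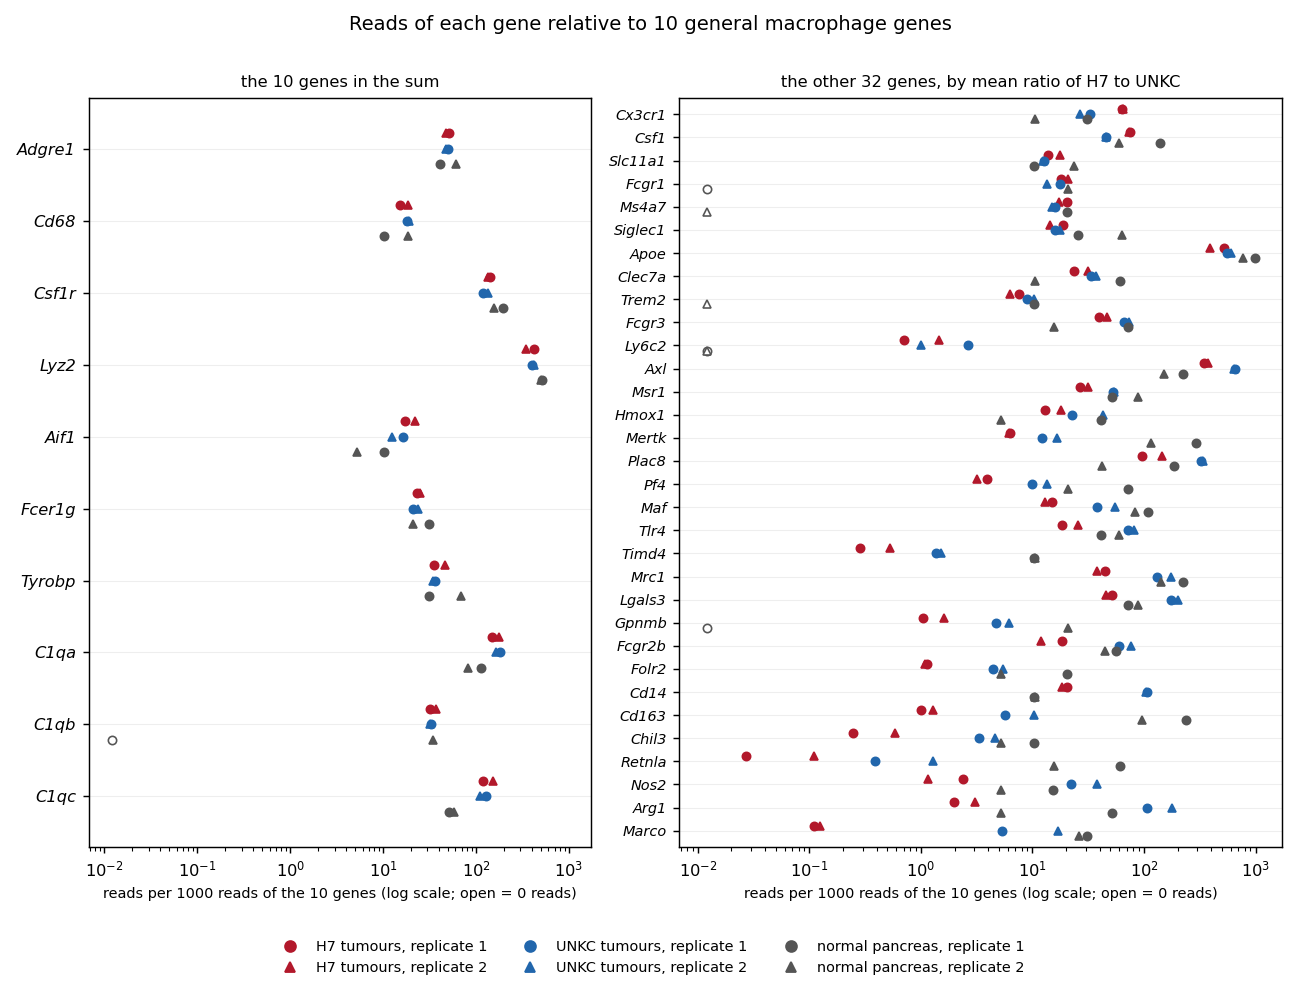
Reads of each gene per 1000 reads of the 10 general macrophage genes in the same library, on a log axis; the left panel has the 10 genes and the right panel the other 32, ordered by the ratio of H7 to UNKC means, with open symbols for 0 reads. The tumours overlap for 8 of the 10 genes, which form their own denominator (C1qa at 147 and 175 in H7 and 179 and 163 in UNKC), not for Csf1r and Aif1. They do not overlap for 30 of the other 32, and separate by about 2 orders of magnitude for Arg1 and Marco at the bottom.

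Other genes of the same pathways were counted in 9 lists. Each count is to be read beside the share of all tested genes called. That share was 29.6% higher and 21.9% lower in H7 over normal, and 29.1% and 19.3% in UNKC over normal. In H7 over UNKC it was 7.06% and 11.1%. Among growth factor receptors and transcription factors of myeloid cells, 11 of 17 were higher and 1 lower in H7 tumours over normal pancreas, 9 higher and 1 lower in UNKC tumours over normal pancreas, and 3 higher and 3 lower in H7 over UNKC tumours. The medians were 1.42, 1.07 and 0.14 (1.16 and 1.04 against normal pancreas with genes at 0 set at their floor). Spi1, which encodes PU.1, had 718 and 895 reads in H7 tumours, 530 and 502 reads in UNKC tumours, and 0 and 4 reads in normal pancreas. It was called in H7 over normal (3.54, adjusted p = 0.00783; 95% counting interval 1.69 to 6.59) and in UNKC over normal (2.64, adjusted p = 0.0304; interval 0.78 to 5.69), the second ending without any 1 of the tumour libraries (adjusted p = 0.0712 and 0.0648 without H7 replicates 1 and 2, and 0.0745 and 0.0554 without UNKC replicates 1 and 2), and also with upper-quartile scaling (0.0541), with the length trend removed (0.0721) and in a fit of the UNKC and normal libraries alone (0.0752). Csf3r, the receptor for the neutrophil growth factor G-CSF, had 1117 and 1644 reads in H7 tumours and 336 and 285 reads in UNKC tumours (2.40 ± 0.23, adjusted p = 0.00227).

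For monocyte recruitment, 11 of 21 genes were higher and 1 lower in H7 tumours over normal pancreas, 14 higher and 0 lower in UNKC tumours over normal pancreas, and 3 higher and 4 lower in H7 over UNKC tumours. The medians were 1.97, 1.93 and -0.57, or 0.65 and 1.17 against normal pancreas with genes at 0 at their floor. F13a1, coagulation factor XIII of monocytes and resident macrophages, had 112 and 167 reads in H7 tumours, 2025 and 2632 reads in UNKC tumours, and 41 and 55 reads in normal pancreas. F13a1 was lower in H7 tumours, at -3.82 ± 0.28 in H7 over UNKC (SE, adjusted p = 0.0012) and -3.58 ± 0.29 in H7 over normal (adjusted p = 0.000338; -0.32 with total counts, adjusted p = 0.453). Ccl6, a macrophage chemokine of rodents, had 320 and 307 reads in H7 tumours and 2279 and 3364 reads in UNKC tumours (-2.91 ± 0.28, adjusted p = 0.00217). Ccl8, a monocyte attractant, had 1838 and 1332 reads in UNKC tumours and none in normal pancreas, at least 12.8-fold higher in UNKC tumours against a floor of 3 read pairs over the normal libraries.

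The ITAM and ITIM partners, the kinases, phosphatases and receptors that act with Fcer1g and Tyrobp, had 13 of 22 genes higher and 0 lower in H7 over normal, 8 higher and 2 lower in UNKC over normal, and 8 higher and 0 lower in H7 over UNKC. The medians were 1.30, 0.87 and 0.80, or 1.19 and 0.69 against normal pancreas with genes at 0 at their floor. Plcg2, the phospholipase of that route, had 2969 and 3983 reads in H7 tumours and 1172 and 896 reads in UNKC tumours (2.00 ± 0.18, SE; adjusted p = 0.00188). Fcgr4, a further activating Fc receptor, had 1382 and 1961 reads in H7 tumours, 1162 and 967 reads in UNKC tumours and none in normal pancreas, at least 16.0-fold higher in H7 and 8.58-fold higher in UNKC tumours against that floor. Among toll-like receptors and their outputs, 13 of 21 were higher and 2 lower in H7 over normal. In UNKC over normal 7 were higher and 3 lower, where 29.1% of all tested genes were higher and 19.3% lower. In H7 over UNKC 7 were higher and 1 lower. The medians were 1.54, 0.75 and 0.81, or 1.17 and 0.21 with genes at 0 at their floor. Ptgs2, the inducible prostaglandin synthase, which carcinoma cells also express, had 11194 and 12616 reads in H7 tumours, 924 and 996 reads in UNKC tumours, and 4 and 4 reads in normal pancreas (3.89 ± 0.14 in H7 over UNKC, adjusted p = 0.000225).

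Lysosome and lipid handling held the largest share of genes higher over normal pancreas of the 9 lists: 19 of 25 were higher and 2 lower in H7 over normal, 20 higher and 2 lower in UNKC over normal, and 7 higher and 5 lower in H7 over UNKC. The medians were 2.80, 2.39 and 0.31, or 2.44 and 2.32 with genes at 0 at their floor. Ctss, cathepsin S of macrophages and dendritic cells, had 20261 and 24076 reads in H7 tumours, 13599 and 10722 reads in UNKC tumours, and 36 and 34 reads in normal pancreas (4.20 ± 0.16 in H7 over normal, SE; adjusted p = 0.000105). Spp1 (osteopontin), which carcinoma cells make too, had 76962 and 79719 reads in H7 tumours, 307188 and 215306 reads in UNKC tumours, and 62 and 98 reads in normal pancreas. Efferocytosis and complement genes were 9 higher and 3 lower of 18 in H7 over normal, 9 higher and 1 lower in UNKC over normal, and 4 higher and 9 lower in H7 over UNKC. The medians were 0.93, 0.98 and -0.49. Pros1, protein S, a ligand of the receptors Mertk and Tyro3, had 402 and 632 reads in H7 tumours and 5664 and 5313 reads in UNKC tumours (-3.16 ± 0.24, adjusted p = 0.0013). Haem and iron handling had 8 of 12 genes higher and 2 lower in H7 over normal, 8 higher and 0 lower in UNKC over normal, and 3 higher and 2 lower in H7 over UNKC. The medians were 2.23, 1.46 and 0.27, or 1.63 and 1.14 with genes at 0 at their floor.

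The partners of the resident class were mostly lower in H7 than in UNKC tumours. Of 16 tested, 3 were higher and 7 lower in H7 over normal. In UNKC over normal 4 were higher and 2 lower, where 29.1% of all tested genes were higher and 19.3% lower. In H7 over UNKC 3 were higher and 9 lower. The 9 include Gata6 and Sall1, and which cells their reads come from was not tested. The medians were -2.56, 0.87 and -3.35, or -2.82, 0.35 and -2.77 with genes at 0 at their floor. Of the 3 higher in H7 over UNKC, Cbr2 was at 2.85 ± 0.42 (SE, adjusted p = 0.00833) and P2ry12 at 1.78 ± 0.23 (adjusted p = 0.00536). Each call ended without H7 replicate 1, and also without UNKC replicate 1. P2ry12 and Fcrls were among the 3 higher in H7 over normal. Lyve1, a hyaluronan receptor of resident macrophages and lymphatic vessels, was among the 9 lower in H7 over UNKC. It had 16 and 34 reads in H7 tumours, 542 and 1737 reads in UNKC tumours, and 22 and 6 reads in normal pancreas. In H7 over UNKC it was at -5.28 ± 0.82 (SE, adjusted p = 0.00956; 0.123 without H7 replicate 1 and 0.0708 without H7 replicate 2). Alternative activation partners had 8 of 17 genes higher and 2 lower in H7 over normal, 10 higher and 1 lower in UNKC over normal, and 2 higher and 5 lower in H7 over UNKC. The medians were 2.00, 3.28 and -0.61, or 0.66 and 0.65 against normal pancreas with genes at 0 at their floor. Slc7a2, a transporter that brings arginine into cells, had 551 and 530 reads in H7 tumours, 5065 and 4709 reads in UNKC tumours, and 140 and 142 reads in normal pancreas, and was lower in H7 than in UNKC tumours (-2.91 ± 0.14, adjusted p = 0.000443).

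Markers of other cells moved with these groups in part. Leukocyte markers (Ptprc, Laptm5, Coro1a and Cd53) summed to 189 and 206 CPM in H7 tumours, 191 and 155 CPM in UNKC tumours, and 56.0 and 91.6 CPM in normal pancreas. The tumours overlapped in that sum, but Ptprc (CD45) was higher in H7 than in UNKC tumours (0.71 ± 0.13, SE; adjusted p = 0.0146). Laptm5 (0.81), Coro1a (0.95) and Cd53 (-1.54) did not pass the test. Dendritic cell markers summed to 67.0 and 80.7 CPM in H7 tumours, 27.2 and 27.4 CPM in UNKC tumours, and 25.0 and 29.1 CPM in normal pancreas. Of the 8, 1 was higher in H7 than in UNKC tumours, Itgax, which macrophages also express. Neutrophil markers summed to 37.0 and 24.1 CPM in H7 tumours, 21.1 and 6.43 CPM in UNKC tumours, and 11.6 and 46.3 CPM in normal pancreas. Of 8 tested, 2 were higher and 1 lower in H7 over UNKC. Markers of T and NK cells summed to 10.5 and 15.1 CPM in H7 tumours, 28.2 and 30.2 CPM in UNKC tumours, and 5.55 and 7.63 CPM in normal pancreas. B and plasma cell markers summed to 0.681 and 0.821 CPM in H7 tumours, 6.08 and 3.27 CPM in UNKC tumours, and 55.5 and 90.6 CPM in normal pancreas. Fibroblast markers summed to 822 and 1234 CPM in H7 tumours, 1224 and 2364 CPM in UNKC tumours, and 215 and 319 CPM in normal pancreas. Of the 6 fibroblast markers, Dcn (1.82), Pdgfra (2.06) and Pdgfrb (2.41) were higher in H7 than in UNKC tumours (adjusted p = 0.00914, 0.0121 and 0.00356), and Col1a1 (-1.65) and Col1a2 (-2.33) did not pass the test. Mast cell and basophil markers summed to 2.71 and 3.76 CPM in H7 tumours, 15.0 and 10.8 CPM in UNKC tumours, and 9.26 and 23.4 CPM in normal pancreas. Of 5 tested, 4 were lower in H7 than in UNKC tumours: Cpa3 (-3.90), Tpsb2 (-5.43), Mcpt4 (-3.82) and Fcer1a (-5.91). Endothelial markers summed to 42.7 and 62.7 CPM in H7 tumours, 82.6 and 127 CPM in UNKC tumours, and 103 and 117 CPM in normal pancreas, and 1 of 5 (Cdh5) was lower in H7 than in UNKC tumours. The part of these cells in the levels of Fcgr2b, Cd14, Axl, Lgals3 or any other gene here was not tested.

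**Figure D5:**
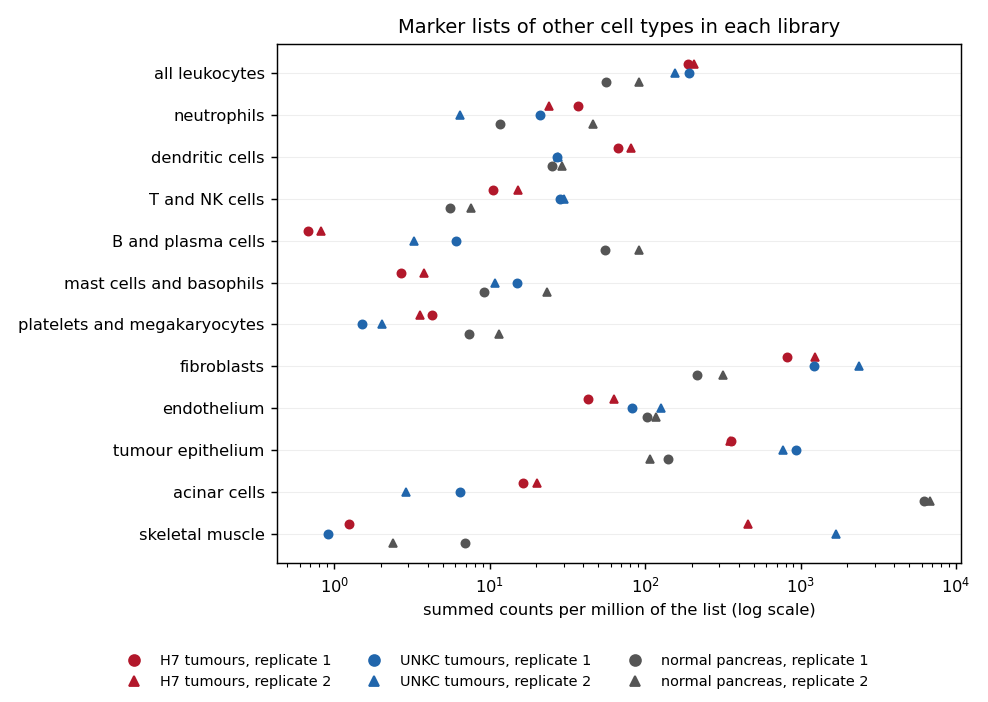
Summed level of marker lists of other cell types in each library, in CPM on a log axis, with circles for replicate 1 and triangles for replicate 2. Leukocyte markers overlap between H7 and UNKC tumours (189 and 206 against 191 and 155), the sum of dendritic cell markers is higher in H7 tumours, and skeletal muscle markers are high in replicate 2 of each tumour.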

How the data were processed

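RNA of 6 mouse samples in 3 groups of n = 2 was compared. Reads were aligned with STAR to mm10, counted with featureCounts and tested with DESeq2 1.18.1, per the submitters' processing notes; the strand setting is not given in the sources used here. As deposited by the authors, the per-sample files hold raw whole-number read counts for 27179 genes. The authors' comparison tables hold fragment counts, TPM (computed by the authors, not used here), gene length in bases, and the authors' own test results: log2 fold changes of tumour over normal and p-values, raw and adjusted. The per-sample counts hold both mates of a pair (median ratio to the fragment counts 2.00). Those tables named 16286 gene IDs, RefSeq (GRCm38.p6) a further 9355, and 1538 stayed unnamed.

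The 16306 genes kept by filterByExpr (minimum count 10) were normalised by TMM and compared in edgeR 4.0.16 (quasi-likelihood, all 6 libraries in 1 fit, R 4.3.3, limma 3.58.1), with Benjamini-Hochberg adjustment across the 16306 and a cutoff of 0.05; adjusted p-values come from this fit except where DESeq2 is named. Where a group had 1 to 3 read pairs the fold has an exact 95% binomial counting interval on pairs, and where it had none a floor of 3 read pairs (6 reads) over the group; both cover counting error only. Alternatives were DESeq2 1.42.0, other scalings and filters, fragment counts, halved counts, removal of the trend on gene length (loess, span 0.5), a fit of 4 libraries, a replicate block and each library left out; a group left with 1 library was given the spread of the others. The sum of general macrophage genes was also taken without Lyz2 and the C1q genes, an alternative chosen after seeing the data. Scripts were tested on simulated data. Tables and figures used Python 3.11.15, pandas 2.3.3, SciPy 1.17.1 and matplotlib 3.10.9.

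The members and all lists were chosen with earlier results of these data known. Named genes are the 42 members and some partner genes. Each partner list and comparison gave up to 2 called genes with the largest rise and 2 with the largest fall. Their higher group averaged 5 CPM or more. Of those the text names only some, many of them ones whose call between the tumours held when each library was left out. This selection was made after their values were seen, as was that of the single marker genes of other cells. Arg2 and Gata6 are partner genes named outside these limits. Promoter motifs were chosen by name of the factor, and their sequences come from RefSeq.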

Additional observations from a re-analysis of the deposited data

Results flagged for a closer look

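For 14 genes the difference from normal pancreas was not the same in the 2 tumour types; each was flagged by the test of that difference, which is the H7 against UNKC contrast of the edgeR fit. The difference, H7 minus UNKC on the log2 scale, was 2.29 for Cx3cr1, 1.91 for Csf1, 1.63 for Aif1, 1.50 for Slc11a1, 1.35 for C1qc, 1.32 for Csf1r, 1.29 for Fcer1g and 1.09 for C1qa. It was -5.34 for Marco, -4.64 for Arg1, -2.86 for Nos2, -2.08 for Chil3, -1.62 for Cd163 and -1.24 for Cd14. Apart from Cx3cr1, Csf1 and Nos2, each of these calls ended in some fit that left out a single library, though each difference kept its direction. Arg1 and Marco are those whose effect lay near 0 against normal pancreas in one tumour (Arg1 at -0.19 in H7, Marco at 0.34 in UNKC) and past 4 in size in the other (Arg1 at 4.44 in UNKC, Marco at -5.00 in H7). Groups of 2 libraries are too small to look for single outlying samples.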

How the results depend on the processing

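The counts of members called moved with the processing, and the larger moves were these. Scaling to total counts left 1 member lower in H7 tumours and 0 lower in UNKC tumours against normal pancreas. It gave 38 higher in H7 and 40 higher in UNKC tumours against normal pancreas, and 4 higher in H7 over UNKC tumours. With the length trend removed, 19 were higher in UNKC tumours over normal pancreas, against 25 without that step. Between the tumours, DESeq2 called 19 higher and the fit of the 4 tumour libraries 20, each with 9 lower. Leaving abundant RNAs out of the library size gave 12 higher there and halved counts 11, against 8 with neither change. With 1 library left out, members higher in H7 over UNKC ran from 2 to 18 and lower from 1 to 9; against normal pancreas they ran from 22 to 30 higher and 4 lower in H7, and from 19 to 33 higher and 2 to 3 lower in UNKC tumours. The cause was not tested.

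Directions of single genes reversed as follows, on the log2 scale. With total counts, in H7 over normal, Mertk was 1.38, Folr2 2.96, Timd4 1.46, Pf4 2.78, Arg1 3.17, Chil3 2.08 and Gpnmb 2.70, and in UNKC over normal Mertk was 1.46, Cd163 0.88, Timd4 2.18 and Pf4 3.37; this scaling shifts all genes together. With upper-quartile factors Maf was -0.20 in H7 over normal, Siglec1 -0.26, Marco -0.0241 and Gpnmb -0.0325 in UNKC over normal, and Mertk 0.0018 in H7 over UNKC. With RLE size factors Maf was -0.0041 (H7 over normal), Siglec1 -0.10 (UNKC over normal) and Mertk 0.0346 (H7 over UNKC). With the length trend removed Tyrobp was -0.035 and Folr2 -0.0386 in UNKC over normal, and Mertk 0.0378 in H7 over UNKC. Siglec1 in UNKC over normal was -0.0322 with a filter of 30 reads, -0.0782 with DESeq2, -0.15 with fragment counts and -0.0014 in the fit of 4 libraries, and Pf4 was 0.063 without a filter. Mertk in H7 over UNKC was 0.0133 with abundant RNAs left out of the library size, 0.0355 with DESeq2 and 0.0139 in the fit of 4 libraries. With 1 library left out, the range in H7 over normal was -0.10 to 0.56 for Maf, -0.71 to 0.23 for Folr2, -0.0728 to 1.13 for Nos2, -0.88 to 1.39 for Arg1 and -1.52 to 9.41 for Gpnmb. In UNKC over normal it was -0.62 to 1.69 for Siglec1, -0.60 to 0.94 for Marco, -0.33 to 0.43 for Pf4 and -0.67 to 10.26 for Gpnmb. In H7 over UNKC it was -0.16 to 0.18 for Mertk, -0.19 to 1.33 for Ly6c2 and -0.23 to 0.55 for Hmox1. Apart from Mertk and Cd163 against normal pancreas, none of these genes had been called in the comparison where it reversed.

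The labels do not pair replicate numbers. Deviations of same-numbered libraries correlated across genes at r = 0.53 for H7 with UNKC, -0.01 for H7 with normal and -0.02 for UNKC with normal. Same-numbered tumour libraries thus deviated together, and replicate 2 of both holds the muscle reads, but the normal libraries did not, so the numbers were not used as pairs. A replicate block gave 12 members higher and 6 lower in H7 over UNKC tumours, adding calls for Adgre1 (adjusted p = 0.0457), Cd68 (0.0425), Tyrobp (0.0494) and Ms4a7 (0.0287), and it changed the call of 1 member in H7 over normal (Fcgr2b, adjusted p = 0.0616) and of 1 in UNKC over normal (C1qb, adjusted p = 0.0493). Without Lyz2 and the C1q genes in the sum, 29 of the 32 ratios per macrophage read between the tumours moved by less than the spread of replicates (Arg1 0.0162, Marco 0.00964). Depth limits what normal pancreas can show: 4 and 3 members had no read in its libraries.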
